A study of Mus musculus with 6 samples.

Results

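The standard proteasome was followed through 36 genes: 14 of the core particle (*Psma1* to *Psma7* and *Psmb1* to *Psmb7*), 17 of the regulatory particle (6 *Psmc* ATPases and 11 *Psmd* subunits), 4 activators (*Psme1* to *Psme4*) and the maturation factor *Pomp*. They were chosen by name, and all 36 were found among the 32285 genes of the deposited tables. CD8 T cells came from mice bearing tumors of B16-OVA, a mouse melanoma line that expresses ovalbumin. Controls carried CD8-Cre and the Rosa26Tomato reporter, and CD8-IFNγRKO mice carried both with IFNgR1flox/flox, so that the Cre, driven by CD8α and active in mature CD8 T cells, deletes the receptor chain that binds IFNγ. From 3 mice per genotype, Tomato+ cells that also stained for CD45, CD3 and CD8 were taken by sorting both the tumor and its draining lymph nodes (LN). Harvest was on day 12 by the labels and over a range of days by the methods. Cells of the 3 mice were pooled into 1 library of 5′ transcript ends per tissue and genotype, 4 libraries in all. With 1 library per group there was no replicate spread to test against, and no test was run. The study used young adult mice of both sexes, and their age and sex were not tied to libraries in the sources used here.

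The proteasome degrades proteins tagged with ubiquitin. Its core is a barrel of stacked rings, in which the outer α subunits form the gate and the inner β subunits hold the cutting sites. The regulatory particle caps the barrel, recognises ubiquitin, and unfolds and feeds in the substrate with its ATPases. PA28 is an alternative cap without ATPases: *Psme1* and *Psme2* encode the α and β chains of the ring found mainly in the cytoplasm, *Psme3* the γ chain of a nuclear ring, and *Psme4* the activator PA200. IFNγ is known to raise PA28α, PA28β and 3 immunoproteasome subunits, *Psmb8*, *Psmb9* and *Psmb10*, which replace the catalytic subunits *Psmb5*, *Psmb6* and *Psmb7*. T cells that are activated and divide make and degrade much protein, and proteasome genes are among those that activated T cells are known to express at higher levels.

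The sequences in front of 4 of the genes are shown because both PA28 chains and the catalytic core subunits are contrasted below. They are RefSeq windows of GRCm38.p6, the assembly also called mm10, from 250 bases before to 50 after the annotated start, 5′ to 3′ on the strand of the gene. *Psme1* (chr14:55578244-55578543, plus strand) and *Psme2* (chr14:55591052-55591351, minus strand) belong to genes that lie close together and point towards each other, with annotated bodies of chr14:55578494-55581527 and chr14:55587440-55591101. *Psmb5* (chr14:54617946-54618245, minus strand) and *Psmb6* (chr11:70525107-70525406, plus strand) encode catalytic subunits. Each window holds upstream sequence and the first transcribed bases. Capitals mark a match, on either strand, to GAAANNGAA, the core of an interferon-stimulated response element, or to TGACNNNGC, the core of the antioxidant response element that Nfe2l1 and Nfe2l2 bind. A gamma-activated site, TTCNNNGAA, was also searched and is in none of these 4 windows. No match overlapped another in them.
Psme1: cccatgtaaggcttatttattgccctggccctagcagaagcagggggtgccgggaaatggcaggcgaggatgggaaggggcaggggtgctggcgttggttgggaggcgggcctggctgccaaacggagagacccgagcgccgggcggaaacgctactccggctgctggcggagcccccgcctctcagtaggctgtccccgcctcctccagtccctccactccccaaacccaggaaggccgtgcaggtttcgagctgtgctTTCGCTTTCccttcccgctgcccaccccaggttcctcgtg
Psme2: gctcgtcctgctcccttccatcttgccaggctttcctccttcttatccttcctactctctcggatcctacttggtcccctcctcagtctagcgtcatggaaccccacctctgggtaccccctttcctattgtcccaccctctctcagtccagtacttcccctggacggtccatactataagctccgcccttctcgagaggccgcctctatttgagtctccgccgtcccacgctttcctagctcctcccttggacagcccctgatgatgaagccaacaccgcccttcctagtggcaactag
Psmb5: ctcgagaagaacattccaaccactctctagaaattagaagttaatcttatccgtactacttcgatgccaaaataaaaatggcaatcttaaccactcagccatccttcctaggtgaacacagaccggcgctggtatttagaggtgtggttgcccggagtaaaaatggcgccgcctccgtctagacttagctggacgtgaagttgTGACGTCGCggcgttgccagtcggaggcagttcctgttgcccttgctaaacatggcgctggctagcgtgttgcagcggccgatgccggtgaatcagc
Psmb6: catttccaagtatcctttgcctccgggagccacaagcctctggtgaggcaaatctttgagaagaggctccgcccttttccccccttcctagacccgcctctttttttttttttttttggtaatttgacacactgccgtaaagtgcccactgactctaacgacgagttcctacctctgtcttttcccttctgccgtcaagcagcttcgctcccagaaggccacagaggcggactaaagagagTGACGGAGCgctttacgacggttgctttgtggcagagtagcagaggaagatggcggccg

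In *Psme1* the match to GAAANNGAA begins 10 bases after the start. In *Psmb5* and *Psmb6* the match to TGACNNNGC begins 47 and 9 bases before it. The annotated gene body of *Psmb6* begins at chr11:70525324, before the start its window takes, so that its match lies inside that body. The *Psme2* window holds no match. Windows were at hand for 30 of the 36 members. TGACNNNGC was found in 5 of them (16.7%; *Psmb5*, *Psmb6*, *Psmc6*, *Psmd12* and *Psme4*) and in 14% of the 27025 genes with a window. GAAANNGAA was found in 6 (20%; *Pomp*, *Psmb3*, *Psmb4*, *Psmc2*, *Psmd4* and *Psme1*) against 9.76%, and TTCNNNGAA in 1 (3.33%; *Psmd2*) against 9.55%. These are letter matches in short windows and say nothing of whether a factor binds there.

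After filtering, 6641 to 8636 cells and 28841136 to 93995655 unique molecular identifiers (UMIs, tags of single RNA molecules) were left per library. The tumor libraries were deeper, with medians of 6308 (control) and 9402.5 (CD8-IFNγRKO) UMIs per cell against 4051 and 3863 in LN. Between 2.50% and 3.10% of barcodes in a library also occurred in another. A level is a gene's part of all UMIs of a library as counts per 1000000 UMIs (CPM), and a log2 ratio has 1 CPM added to both levels. Values in parentheses after them are exact 95% intervals that cover counting error only, not differences between mice. The interval of a ratio is taken without the added CPM, which matters most for genes at low levels. *Cd3d* and *Cd3e*, which the cell filter did not use, were at 837 to 1705 CPM in the 4 libraries. The summed level of 6 macrophage markers was 2.47 to 18.9 CPM and of 4 melanoma markers 0.20 to 3.24 CPM, with *Tyrp1* at 0 in 2 libraries. The 4 dendritic cell markers summed to 80.1 CPM in control tumor and 9.59 to 26.5 CPM elsewhere, with *Flt3* at 0 in 2 libraries. *Ifngr1*, the targeted gene, was at 137 CPM in CD8-IFNγRKO LN against 182 CPM in control LN, and at 237 against 718 CPM in tumors.

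The members together took 0.472% of all UMIs in control LN, 0.459% in CD8-IFNγRKO LN, 0.683% in control tumor and 0.78% in CD8-IFNγRKO tumor, or 21.3, 19.7, 57.2 and 84.9 UMIs per cell. The LN libraries differed little, and the tumor libraries stood above both, the CD8-IFNγRKO tumor highest. None of the 36 was at 0 in any library. Core genes summed to 2053, 2022, 3413 and 3937 CPM in the same order. Regulatory particle genes summed to 1339, 1355, 1868 and 2183 CPM. *Psme1* and *Psme2* summed to 1083, 976, 1183 and 1269 CPM, so that for every 100 core UMIs there were 52.7, 48.3, 34.7 and 32.2 UMIs of the PA28 αβ pair. These are ratios of UMIs within a library and not of protein, and they moved with depth per cell. Among cells with 2000 to under 4000 UMIs the pair was at 1084, 970, 1219 and 1383 CPM in the same order. The core was at 1999, 1982, 2710 and 2960 CPM there. In that band the CD8-IFNγRKO over control log2 ratio in tumor was 0.18 for the pair and 0.13 for the core. The tumor libraries thus changed order in pair UMIs per core UMI.

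**Figure D1:**
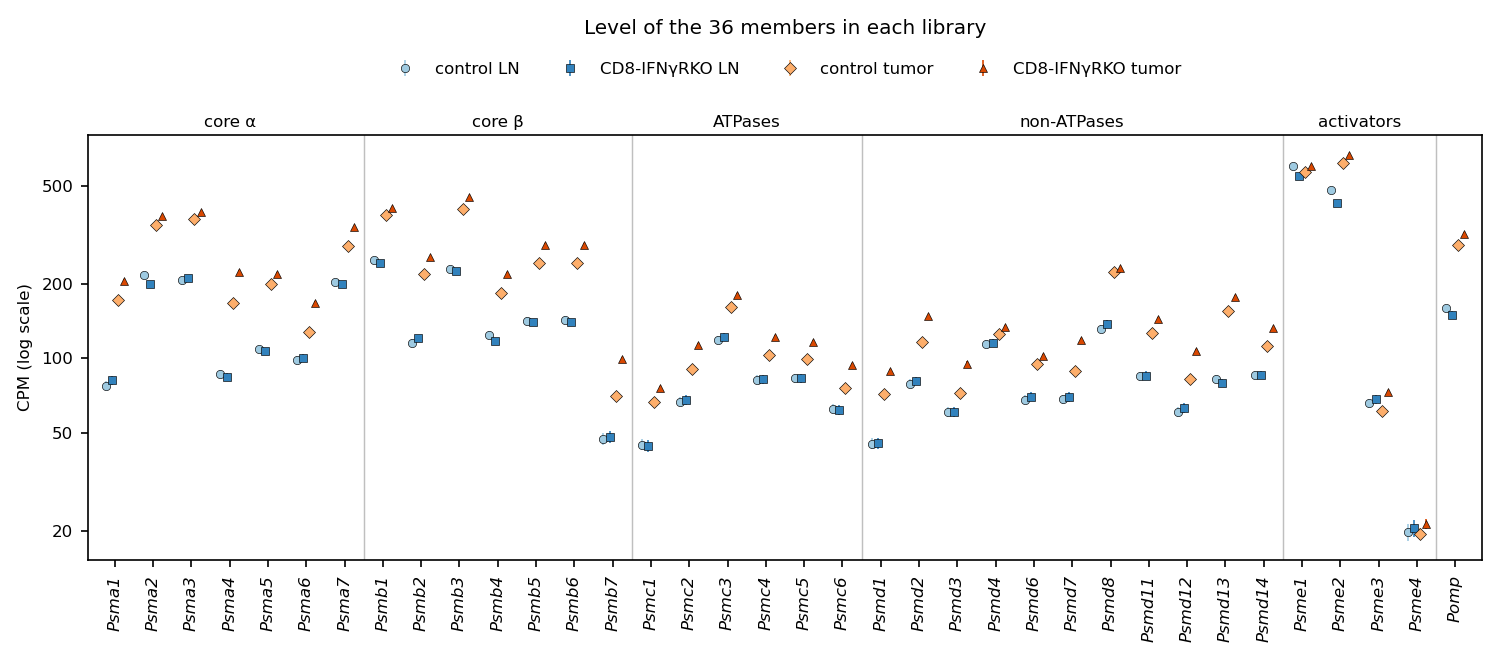
Level of each of the 36 members in each of the 4 libraries, in CPM on a log scale, with exact Poisson 95% intervals where they are wider than the symbol, grouped by subunit class, the last gene being *Pomp*. Most core genes are higher in both tumor libraries than in both LN libraries, while *Psme1*, *Psme3* and *Psme4* lie close together in all 4.

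Tumor and LN cells were compared first, within each genotype. In control mice, all 14 core genes were higher in the tumor, with a summed log2 ratio of 0.73 (0.72 to 0.75), and so were all 17 regulatory particle genes, at 0.48 (0.46 to 0.50), of which 4 changed direction when the library size was reduced as described below. In CD8-IFNγRKO mice, the sums were 0.96 (0.95 to 0.97) and 0.69 (0.67 to 0.70). Over all cells, *Psme1* and *Psme2* together differed least, at 0.13 (0.11 to 0.15) and 0.38 (0.36 to 0.40). In CD8-IFNγRKO mice this order depended on depth per cell. Among cells with 2000 to under 4000 UMIs the pair was at 0.51 (0.46 to 0.56) and the regulatory particle at 0.30 (0.26 to 0.35). Among cells with 8000 to under 16000 UMIs they were at 0.35 (0.30 to 0.41) and 0.64 (0.59 to 0.69). Among genes that reached 50 CPM in at least one of the libraries compared, the median ratio was 0.20 in control mice, with quartiles of -0.39 and 0.79, and 0.23 in CD8-IFNγRKO mice, with quartiles of -0.45 and 0.83.

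Of the 36 members, 19 were at or above a log2 ratio of 0.5 in control mice, and none at or below -0.5, where 35.8% of 3332 genes were higher by this limit and 21.6% lower. In CD8-IFNγRKO mice the limit was reached by 31, with none below, where 37.8% of 3454 genes were higher and 23.4% lower. Of the members, 35 had 50 CPM in one of the libraries compared, in either genotype, and *Psme4* did not. Among the 19 were 12 core genes, 6 regulatory particle genes and *Pomp*, the chaperone of core assembly. Among the 31 were all 14 core genes, 15 regulatory particle genes, *Pomp* and *Psme2*. Medians over the members were 0.56 and 0.76. With T cell receptor segments, heat shock, ribosomal protein and mitochondrial genes taken out of the library size, the numbers were 8 and 20 members. The shares of all genes past the limit turned to 22.4% higher and 35.6% lower in control mice, now of 4522 genes. In CD8-IFNγRKO mice they were 24.2% and 35.2% of 4589 genes. Of 35 members with 50 CPM in control mice, the 8 lay close to the share of all genes. Centred on the median gene, the shares were 27.9% and 28.2% in control and 28.1% and 30.4% in CD8-IFNγRKO mice, and 11 and 24 members reached the limit. Depth per cell moved with tissue, and among cells with 2000 to under 4000 UMIs only 5 members in control mice (*Psma1*, *Psma5*, *Psmb2*, *Psmd8* and *Psmd13*, named after their values were seen) and 13 in CD8-IFNγRKO mice reached it, where 30.7% and 29.0% of all genes did, so that the control members lay below the share of all genes. Among cells with 4000 to under 8000 UMIs 13 and 22 members reached it, where 35.7% and 34.1% of genes did, and among cells with 8000 to under 16000 UMIs 16 and 27 members, where 37.2% and 36.6% of genes did. Ribosomal protein genes took 33.2% and 32.1% of UMIs in LN and 19.8% and 19.6% in tumors.

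The 3 members with the highest ratios in control mice were *Psma1*, *Psma4* and *Psmb2*, and in CD8-IFNγRKO mice *Psma4*, *Psma1* and *Psmd13*. *Psma1*, of the outer ring, was at 77.6 CPM in control LN, 81.4 CPM in CD8-IFNγRKO LN, 173 CPM in control tumor and 206 CPM in CD8-IFNγRKO tumor, a tumor over LN ratio of 1.15 (1.09 to 1.22) in control and 1.33 (1.28 to 1.40) in CD8-IFNγRKO mice. *Psma4*, of the same ring, was at 86.7 CPM in control LN, 84.2 CPM in CD8-IFNγRKO LN, 168 CPM in control tumor and 225 CPM in CD8-IFNγRKO tumor, with ratios of 0.95 (0.89 to 1.02) and 1.41 (1.36 to 1.48). Both tumor libraries were above both LN libraries for these genes. *Psmb2*, of the inner ring, was at 116 CPM in control LN, 121 CPM in CD8-IFNγRKO LN, 219 CPM in control tumor and 257 CPM in CD8-IFNγRKO tumor, with ratios of 0.92 (0.87 to 0.98) and 1.09 (1.04 to 1.14). *Psmd13*, of the lid of the regulatory particle, was at 82.6 CPM in control LN, 79.5 CPM in CD8-IFNγRKO LN, 155 CPM in control tumor and 177 CPM in CD8-IFNγRKO tumor, with ratios of 0.90 (0.85 to 0.98) and 1.15 (1.09 to 1.22).

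All 3 catalytic subunits were higher in both tumor libraries than in both LN libraries. *Psmb5*, the chymotrypsin-like subunit, was at 142 CPM in control LN, 141 CPM in CD8-IFNγRKO LN, 243 CPM in control tumor and 289 CPM in CD8-IFNγRKO tumor, a ratio of 0.77 (0.72 to 0.82) in control and 1.03 (0.99 to 1.09) in CD8-IFNγRKO mice. *Psmb6*, the caspase-like subunit, was at 144 CPM in control LN, 140.0 CPM in CD8-IFNγRKO LN, 244 CPM in control tumor and 289 CPM in CD8-IFNγRKO tumor, with ratios of 0.76 (0.72 to 0.82) and 1.04 (1.00 to 1.09). *Psmb7*, the trypsin-like subunit, was at 47.1 CPM in control LN, 48.1 CPM in CD8-IFNγRKO LN, 70.2 CPM in control tumor and 99.5 CPM in CD8-IFNγRKO tumor, with ratios of 0.56 (0.49 to 0.66) and 1.03 (0.97 to 1.13). In each case the CD8-IFNγRKO tumor was the highest of the 4 libraries. In LN the intervals of *Psmb5*, *Psmb6* and *Psmb7* for the genotypes overlapped. The ATPases ranged from 0.26 (*Psmc5*) to 0.57 (*Psmc1*) in control mice. The other regulatory subunits ranged from 0.14 (*Psmd4*, a ubiquitin receptor) to 0.90 (*Psmd13*), and *Pomp* was at 0.85 and 1.08.

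At the other end, the lowest 3 ratios belonged to activators in both genotypes. *Psme1* (PA28α) was at 601 CPM in control LN, 550.0 CPM in CD8-IFNγRKO LN, 567 CPM in control tumor and 600.3 CPM in CD8-IFNγRKO tumor, a ratio of -0.08 (-0.11 to -0.06) in control and 0.13 (0.10 to 0.15) in CD8-IFNγRKO mice, the latter turning to -0.13 with the reduced library size and -0.10 when centred on the median gene. *Psme3* (PA28γ) was at 65.8 CPM in control LN, 68.3 CPM in CD8-IFNγRKO LN, 61.1 CPM in control tumor and 72.8 CPM in CD8-IFNγRKO tumor, with ratios of -0.10 (-0.19 to -0.03) and 0.09 (0.02 to 0.17), the latter turning to -0.16 and -0.14. *Psme4* (PA200) was at 19.7 CPM in control LN, 20.5 CPM in CD8-IFNγRKO LN, 19.4 CPM in control tumor and 21.3 CPM in CD8-IFNγRKO tumor, with ratios of -0.02 (-0.17 to 0.12) and 0.06 (-0.07 to 0.20), turning to 0.06 in thinned cells and 0.02 as a mean of cells in control mice, and to -0.19 and -0.17 with the reduced library size and centring in CD8-IFNγRKO mice. *Psme2* (PA28β) differed from its partner, at 482 CPM in control LN, 426 CPM in CD8-IFNγRKO LN, 616 CPM in control tumor and 669 CPM in CD8-IFNγRKO tumor, with ratios of 0.35 (0.33 to 0.38) and 0.65 (0.62 to 0.68). The UMIs of *Psme1* per UMI of *Psme2* were 1.25 and 1.29 in control and CD8-IFNγRKO LN and 0.92 and 0.90 in the tumors. *Psme2b*, a near copy of *Psme2* that can share its reads, was at 9.15 to 13.8 CPM.

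The direction also depended on the library size for some regulatory subunits in control mice: with the reduced library size *Psmc5*, *Psmc6*, *Psmd3* and *Psmd4* turned to between -0.01 and -0.14, and *Psmd4* turned to -0.04 in CD8-IFNγRKO mice. Under that library size the median gene was at -0.20 and -0.15, the core sum at 0.45 and 0.70, the regulatory particle sum at 0.20 and 0.43, and the sum of *Psme1* and *Psme2* at -0.15 and 0.12, control before CD8-IFNγRKO. The core sum was above the regulatory particle sum, and both above the median gene, under both library sizes. Centring on the median gene turned *Psmd4* to -0.07 in control and -0.01 in CD8-IFNγRKO mice. Among cells with 4000 to under 8000 UMIs, where each library had 1922 to 3024 cells, the core sum was at 0.58 (0.56 to 0.60) and 0.76 (0.74 to 0.78), the regulatory particle at 0.35 (0.32 to 0.38) and 0.49 (0.46 to 0.52) and the PA28 αβ pair at 0.10 (0.07 to 0.13) and 0.48 (0.45 to 0.51). Tumors were digested with enzymes at body temperature and LN were not, and tissue and digestion cannot be told apart.

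**Figure D2:**
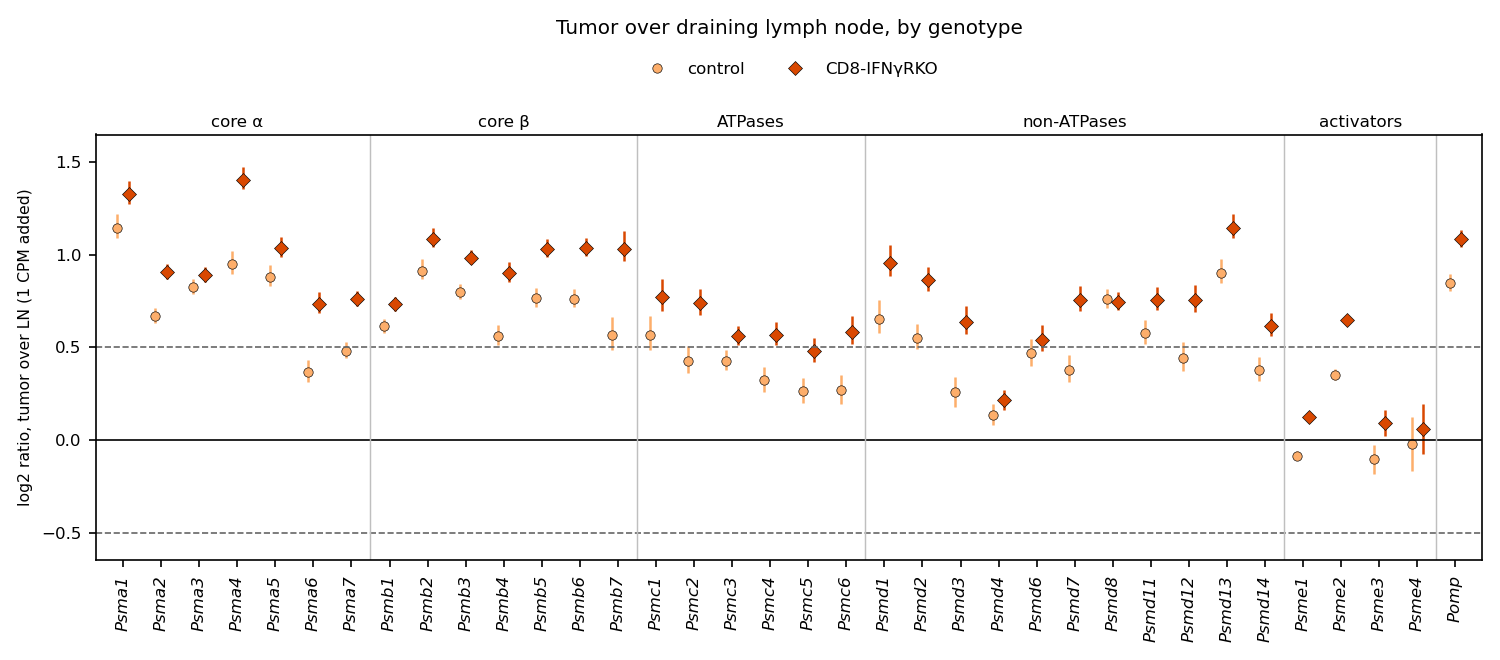
Log2 ratio of tumor over LN for each member in control (circles) and CD8-IFNγRKO (diamonds) mice, with lines for the exact 95% counting intervals and dashed lines at 0.5 and -0.5. The core genes lie at 0.37 to 1.15 and 0.73 to 1.41, overlapping the regulatory particle genes, and *Psme1*, *Psme3* and *Psme4* lie between -0.10 and 0.13.

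The genotypes were then compared within the tumor. All 36 members were higher in CD8-IFNγRKO cells, also under each scaling tried, with every interval above 0. Their median log2 ratio was 0.23, where the median of all genes was 0.03 with quartiles of -0.16 and 0.22. The share of all genes above 0, or with an interval above 0, was not computed. This holds also for the later counts of members above 0. A limit of 0.25 was reached by 13 of the 36 and -0.25 by none, where 22.3% of 3096 genes were higher by this limit and 17.1% lower. The 13 comprised *Psma1*, *Psma4*, *Psma6*, *Psma7*, *Psmb4* and *Psmb7* of the core and *Psmc2*, *Psmc6*, *Psmd1*, *Psmd2*, *Psmd3*, *Psmd7* and *Psmd12* of the regulatory particle. *Psmb5*, *Psmc4* and *Psme3* lay just below the limit, all at 0.25 when rounded. The core sum stood at 0.21 (0.20 to 0.21), the regulatory particle sum at 0.22 (0.21 to 0.24) and the PA28 αβ pair at 0.10 (0.09 to 0.11).

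The highest ratios were those of *Psmb7*, *Psma4* and *Psmd7*. *Psmb7*, the trypsin-like subunit, had 70.2 (68.1 to 72.4) CPM in control tumor against 99.5 (97.5 to 101) CPM in the CD8-IFNγRKO library, a ratio of 0.50 (0.45 to 0.56). *Psma4* had 168 (165 to 172) and 225 (222 to 228) CPM in the same order, a ratio of 0.41 (0.38 to 0.45). *Psmd7*, the lid subunit that pairs with the deubiquitinase *Psmd14*, was at 68.2 CPM in control LN, 69.8 CPM in CD8-IFNγRKO LN, 89.1 CPM in control tumor and 119 CPM in CD8-IFNγRKO tumor, a tumor ratio of 0.41 (0.36 to 0.46). For each of these the intervals of the tumor libraries did not overlap. The genes were picked by their tumor ratios, so this does not set them apart from the other members. The share of all genes with such intervals was not computed. Their LN ratios were 0.03 (-0.08 to 0.14), -0.04 (-0.12 to 0.04) and 0.03 (-0.06 to 0.12). Genes picked by a high tumor ratio can have lower LN ratios through that choice alone, and the difference between tissues was not tested. The other catalytic subunits *Psmb5* and *Psmb6* had tumor ratios of 0.25 (0.22 to 0.28) and 0.24 (0.21 to 0.27). The lowest ratios were those of *Psmd8*, *Psme1* and *Psmb1*. *Psmd8*, of the lid, was at 132 CPM in control LN, 138 CPM in CD8-IFNγRKO LN, 224 CPM in control tumor and 232 CPM in CD8-IFNγRKO tumor, a tumor ratio of 0.05 (0.02 to 0.08). *Psmb1*, a core subunit without a cutting site of its own, was at 249.7 CPM in control LN, 244 CPM in CD8-IFNγRKO LN, 383 CPM in control tumor and 405 CPM in CD8-IFNγRKO tumor, a tumor ratio of 0.08 (0.06 to 0.11). *Psme1* and *Psme2* had ratios of 0.08 (0.06 to 0.10) and 0.12 (0.10 to 0.14), *Psme3* of 0.25 (0.19 to 0.31) and *Psme4* of 0.13 (0.03 to 0.24).

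Depth and cell state moved with the genotype. The CD8-IFNγRKO tumor library had more UMIs per cell, 31.3% of its cells had a UMI of *Mki67* or *Top2a* after thinning against 19.1% of control cells, and its 6 heat shock genes summed to 6882 CPM against 4469 CPM. The part of heat shock in the result was not tested. Among cells with 2000 to under 4000 UMIs, 30 of 36 members were higher in CD8-IFNγRKO cells and the core sum was at 0.13 (0.09 to 0.17). Among cells with 4000 to under 8000 UMIs, it was 36 of 36 and 0.17 (0.15 to 0.19), and among those with 8000 to under 16000 UMIs, 34 of 36 and 0.16 (0.14 to 0.17). The core ratio was positive in each band and smaller than over all cells, and 7, 9 and 8 members reached 0.25, where 18.3%, 17.5% and 16.9% of all genes did. The 7 of the shallowest band are close to that share. The regulatory particle was at 0.14 (0.08 to 0.19), 0.16 (0.14 to 0.19) and 0.16 (0.14 to 0.17) in the 3 bands, and the PA28 αβ pair at 0.18 (0.12 to 0.24), 0.25 (0.22 to 0.28) and 0.12 (0.10 to 0.14). Cells without a UMI of *Mki67* or *Top2a* gave 36 of 36 members above 0 with a median of 0.27, where the median of all genes was 0.02. In them 19 members reached 0.25, where 23.6% of all genes were higher by this limit and 18.1% lower. Cells with such a UMI gave 34 of 36 above 0 with a median of 0.12. For these cells no median or share of all genes was computed, and the difference between the member medians was not tested.

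**Figure D3:**
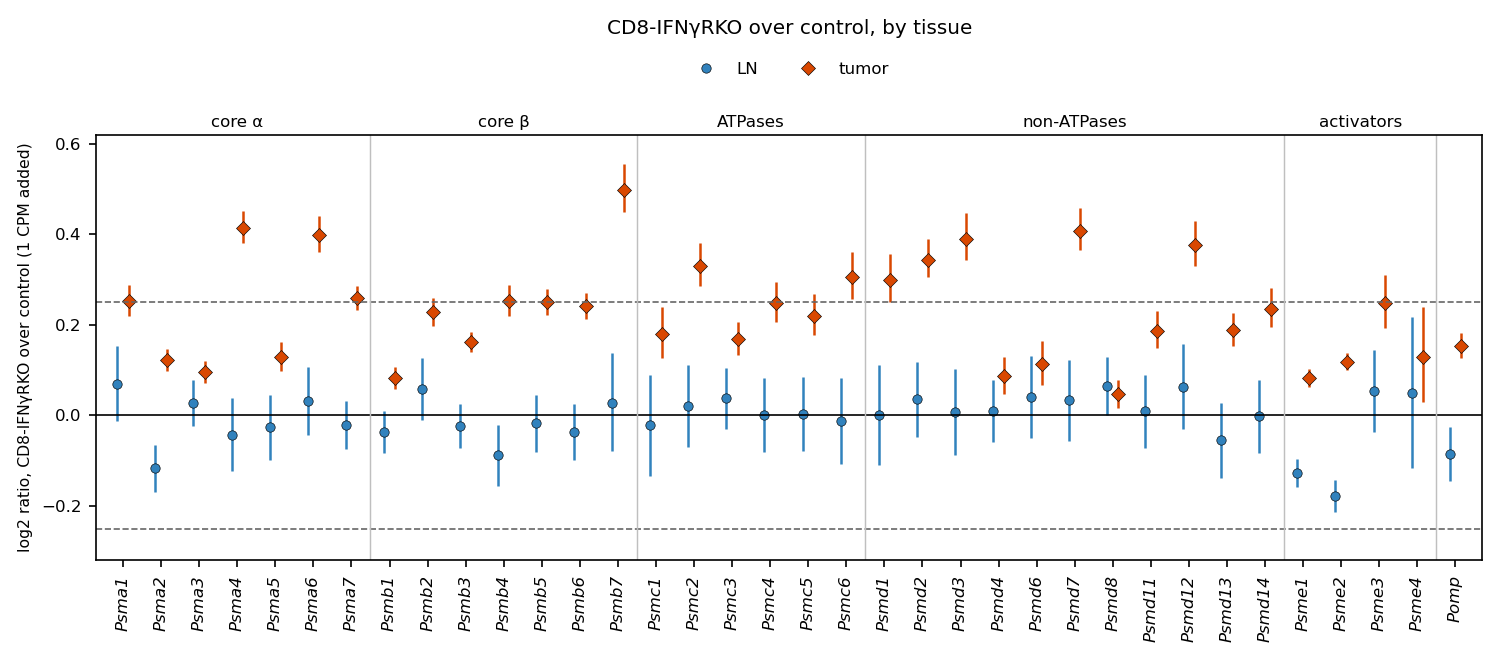
Log2 ratio of CD8-IFNγRKO over control for each member in LN (circles) and tumor (diamonds), with lines for the exact 95% counting intervals and dashed lines at 0.25 and -0.25. All tumor values lie above 0, from 0.05 to 0.50, and LN values lie between -0.18 and 0.07.

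In LN the genotypes were close. The median over the members was 0.00, where the median of all genes was 0.03 with quartiles of -0.03 and 0.09. Centred on the median gene, the members had a median of -0.03 and 10 of them were above 0. None of the 36 reached 0.25 in either direction, where 2.18% of 2752 genes were higher by this limit and 1.45% lower. Centred, the shares were 1.34% and 1.74%, and with the reduced library size 1.52% and 1.52%. With so few genes past the limit, a count of 0 members is close to the share of all genes. Of the members, 32 had 50 CPM in a LN library, without *Psmb7*, *Psmc1*, *Psmd1* and *Psme4*. The core sum was at -0.02 (-0.04 to -0.01) and the regulatory particle at 0.02 (0.00 to 0.04). The PA28 αβ pair was lower in CD8-IFNγRKO cells, at -0.15 (-0.17 to -0.13). *Psme2* had 482 (474 to 489.9) CPM in control LN against 426 (419 to 434) CPM, a ratio of -0.18 (-0.21 to -0.14), and *Psme1* 601 (592 to 609.5) against 550.0 (542 to 559) CPM, a ratio of -0.13 (-0.16 to -0.10). These were the lowest of the members. *Psma2*, next in order, was at 217 CPM in control LN, 200.1 CPM in CD8-IFNγRKO LN, 346 CPM in control tumor and 376 CPM in CD8-IFNγRKO tumor, a LN ratio of -0.12 (-0.17 to -0.07). The intervals of *Psmb4* and *Pomp*, both at -0.09, also lay below 0.

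The highest LN ratios were those of *Psma1*, at 0.07 (-0.01 to 0.15), *Psmd8*, at 0.06 (0.00 to 0.13), and *Psmd12*, at 0.06 (-0.03 to 0.16), where *Psmd12*, a lid subunit, was at 60.5 CPM in control LN, 63.2 CPM in CD8-IFNγRKO LN, 82.7 CPM in control tumor and 108 CPM in CD8-IFNγRKO tumor. Only the interval of *Psmd8* among the members lay above 0. The pair of PA28 genes kept its ratio in each band of depth, at -0.16 (-0.20 to -0.12) among cells with 2000 to under 4000 UMIs, -0.14 (-0.17 to -0.11) among cells with 4000 to under 8000 UMIs and -0.13 (-0.20 to -0.06) among the 290 and 391 cells with 8000 to under 16000 UMIs. Other ways of choosing cells and scaling gave -0.18 to -0.15. In that deepest band 1 member was past the limit, *Psmc6*, an ATPase, at -0.37, where 8.26% of all genes were higher by this limit and 4.08% lower, and it was named after its values were seen. *Psme3* and *Psme4* were at 0.05 (-0.04 to 0.14) and 0.05 (-0.12 to 0.22). In LN too the heat shock genes were higher in CD8-IFNγRKO cells, at 4962 against 3876 CPM, and their part in the result was not tested.

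**Figure D4:**
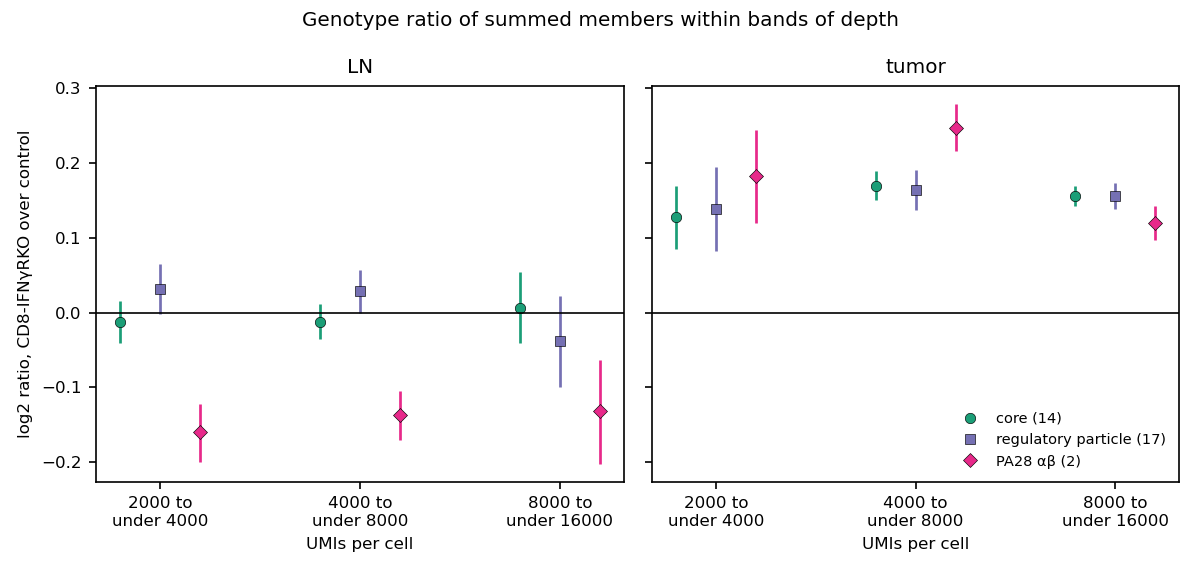
Log2 ratio of CD8-IFNγRKO over control for the summed core, regulatory particle and PA28 αβ genes within bands of UMIs per cell, in LN (left) and tumor (right), with lines for the exact 95% counting intervals. In the tumor all 3 sums lie above 0 in each band, between 0.12 and 0.25, and in LN the PA28 pair lies between -0.16 and -0.13 while the others lie within 0.04 of 0.

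The immunoproteasome subunits, which are not among the 36, were, as PA28, lower in CD8-IFNγRKO cells in LN. *Psmb9* was at 209 CPM in control LN, 163 CPM in CD8-IFNγRKO LN, 446 CPM in control tumor and 501 CPM in CD8-IFNγRKO tumor, a genotype ratio of -0.36 (-0.41 to -0.30) in LN and 0.17 (0.14 to 0.19) in tumor. *Psmb10* was at 197 CPM in control LN, 162 CPM in CD8-IFNγRKO LN, 201 CPM in control tumor and 211 CPM in CD8-IFNγRKO tumor, with ratios of -0.28 (-0.34 to -0.22) and 0.07 (0.03 to 0.10), and *Psmb8* at 588 CPM in control LN, 525 CPM in CD8-IFNγRKO LN, 1064 CPM in control tumor and 1104 CPM in CD8-IFNγRKO tumor, with ratios of -0.16 (-0.20 to -0.13) and 0.05 (0.04 to 0.07). Both *Psmb9* and *Psmb10* were past the limit of 0.25 in LN. Set against the standard subunit each replaces, the immunoproteasome share of UMIs for *Psmb9* and *Psmb6* was 59.2% (58.3 to 60.2) in control LN and 53.8% (52.7 to 54.8) in CD8-IFNγRKO LN, and 64.6% (64.2 to 65.1) and 63.4% (63.1 to 63.8) in the tumors. For *Psmb10* and *Psmb7* it was 80.7% (79.8 to 81.6) and 77.1% (76.0 to 78.2) in LN and 74.2% (73.5 to 74.8) and 68.0% (67.4 to 68.5) in the tumors, and for *Psmb8* and *Psmb5* 80.5% (80.0 to 81.0), 78.9% (78.3 to 79.4), 81.4% (81.2 to 81.7) and 79.3% (79.1 to 79.5) in the same order. In each tissue the share was lower in CD8-IFNγRKO cells for all 3 pairs, by the most for *Psmb10* in tumor and *Psmb9* in LN. For the *Psmb10* pair in tumor, the genotype ratio was 0.07 for *Psmb10* and 0.50 for *Psmb7*.

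Of 7 assembly chaperones, all 7 had tumor ratios above 0 between genotypes, from 0.05 (*Psmd10*) to 0.65 (*Psmg1*). Only 2 had 50 CPM in a tumor library, so that most stood outside the genes behind the percentages above. *Psmg1*, which pairs with *Psmg2* to start the α ring, was lower in tumor than in LN, at 36.4 CPM in control LN, 34.7 CPM in CD8-IFNγRKO LN, 15.1 CPM in control tumor and 24.2 CPM in CD8-IFNγRKO tumor, with ratios of -1.22 (-1.40 to -1.14) and -0.50 (-0.63 to -0.41). The transcription regulator *Nfe2l2* was also lower in tumors, at -1.39 and -1.48, as was *Nfe2l1*, which drives proteasome genes when the proteasome is impaired, at -0.25 and -0.33. *Ddi2*, the protease of Nfe2l1, was at -0.01 and -0.09. All 3 had at most 52.7 CPM in every library, and their tumor ratios between genotypes ranged from -0.10 to 0.06. Of 8 deubiquitinases and shuttles, 7 had 50 CPM in a tumor library. Between genotypes in the tumor, 4 were at or above 0.25 and none at or below -0.25. Of 3096 genes, 22.3% were higher by this limit and 17.1% lower. *Uchl5*, a deubiquitinase of the regulatory particle, was highest at 0.42 (0.37 to 0.48) and *Ufd1* lowest at -0.09 (-0.16 to -0.03). The ubiquitin gene *Ubb* was lower in CD8-IFNγRKO tumor cells, at -0.16 (-0.17 to -0.15), and the ubiquitin-activating enzyme *Uba1* was at 0.25 (0.21 to 0.30). Of the remaining regulatory subunits, *Adrm1* was at 0.19 (0.14 to 0.24) and *Sem1* at -0.05 (-0.07 to -0.03).

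Cells were then set against each other within a library. Classes by marker genes, none of them a member, used the UMIs left after thinning each cell to 1600 UMIs. Levels within a class were then taken from all UMIs of its cells. Cells with a UMI of *Ifit1*, *Ifit3* or *Rsad2*, genes induced by interferons, made up 422 cells (6.59%) of control LN, 489 (7.31%) of CD8-IFNγRKO LN, 578 (9.03%) of control tumor and 951 (11.4%) of CD8-IFNγRKO tumor. Their *Psme1* level was higher than in the other cells in all 4 libraries, at 701 against 594 CPM in control LN, 651 against 542 CPM in CD8-IFNγRKO LN, 656 against 560.1 CPM in control tumor and 709.9 against 591 CPM in CD8-IFNγRKO tumor. The ratios were 0.24 (0.16 to 0.32), 0.27 (0.18 to 0.35), 0.23 (0.17 to 0.28) and 0.26 (0.22 to 0.31), the highest of the 36 in each library. *Psme2* was higher in LN, at 0.18 (0.09 to 0.27) and 0.18 (0.09 to 0.28), and close to 0 in tumors, at 0.02 (-0.04 to 0.08) and 0.04 (0.00 to 0.08). The core sum was at 0.04 (-0.01 to 0.08) and -0.02 (-0.07 to 0.02) in LN and lower in these cells in tumors, at -0.12 (-0.15 to -0.10) and -0.17 (-0.19 to -0.15). Median UMIs of the tumor cells with these genes were 5651 and 5780, against 7074.5 and 10188 in the others, and the part of depth in these ratios was not tested.

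In tumors, cells with a UMI of *Havcr2*, a receptor of exhausted cells, and none of *Tcf7* were set against cells with a UMI of *Tcf7*, a factor of stem-like and naive cells, and none of *Havcr2*. There were 2190 and 170 such cells in control and 2129 and 470 in CD8-IFNγRKO tumor. The core sum was higher in *Havcr2* cells, at 3369 against 2645 CPM in control and 3927 against 2928 CPM in CD8-IFNγRKO tumor, ratios of 0.35 (0.29 to 0.41) and 0.42 (0.39 to 0.46). The regulatory particle followed, at 0.27 (0.19 to 0.36) and 0.38 (0.33 to 0.42). *Psme1* went the other way and was the lowest of the 36 in both libraries, at 552 against 719 CPM in control and 577 against 783 CPM in CD8-IFNγRKO tumor, ratios of -0.38 (-0.50 to -0.26) and -0.44 (-0.51 to -0.37). *Psme2* was at 0.19 (0.05 to 0.33) and 0.12 (0.04 to 0.19), and the pair together at -0.11 (-0.20 to -0.02) and -0.17 (-0.22 to -0.12). Median UMIs were 3701.5 in *Tcf7* and 7473 in *Havcr2* cells of control tumor and 3920 and 10321 in CD8-IFNγRKO tumor. Among cells with 4000 to under 8000 UMIs, with 54 control *Tcf7* cells, *Psme1* was at -0.36 (-0.57 to -0.14) and -0.18 (-0.30 to -0.05). The core was at 0.31 (0.20 to 0.42) and 0.33 (0.27 to 0.40) there. In that band the PA28 pair was at -0.11 (-0.27 to 0.05) and, with its direction turned, 0.04 (-0.05 to 0.13). With 2000 to under 4000 UMIs, over 92 and 211 *Tcf7* cells, the pair was at -0.17 (-0.34 to 0.01) and -0.20 (-0.35 to -0.06). *Psme1* was at -0.42 (-0.65 to -0.19) and -0.50 (-0.70 to -0.31) there, and the core at 0.23 (0.10 to 0.36) and 0.44 (0.34 to 0.54).

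Clone size, read from the T cell receptor libraries of the tumors, gave the same order of the complexes. Cells of clones with 10 or more cells (3841 control and 5372 CD8-IFNγRKO) were set against cells whose receptor was seen once (179 and 351). The core was higher in large clones, at 0.22 (0.17 to 0.28) in control and 0.50 (0.46 to 0.54) in CD8-IFNγRKO tumor, and so was the regulatory particle, at 0.16 (0.09 to 0.24) and 0.43 (0.38 to 0.49). *Psme1* was lower in large clones, at 549 against 789 CPM in control and 580.2 against 845 CPM in CD8-IFNγRKO tumor, ratios of -0.52 (-0.63 to -0.41) and -0.54 (-0.62 to -0.47). *Psme2* was at -0.04 (-0.16 to 0.08) and 0.04 (-0.04 to 0.13), with intervals that include 0. Among cells with 2000 to under 4000 UMIs *Psme2* was at 0.02 (-0.24 to 0.28) and 0.35 (0.16 to 0.56). With 4000 to under 8000 UMIs it was at -0.01 (-0.21 to 0.18) and 0.04 (-0.09 to 0.18). Within 4000 to under 8000 UMIs per cell, *Psme1* was at -0.58 (-0.75 to -0.42) and -0.35 (-0.47 to -0.24) and the core at 0.13 (0.04 to 0.22) and 0.39 (0.32 to 0.45). The regulatory particle was at 0.11 (-0.01 to 0.23) in control, an interval that includes 0, and 0.31 (0.22 to 0.40) in CD8-IFNγRKO tumor in that band, and at 0.11 (-0.05 to 0.27) and 0.35 (0.22 to 0.48) among cells with 2000 to under 4000 UMIs. The largest clone held 25.8% of the control and 24.6% of the CD8-IFNγRKO cells with both chains.

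Genotype ratios in tumors were then taken by clone size, and the difference between clone sizes was not tested. Between cells of clones of 1 cell, whose median UMIs were close (4049 control, 4082 CD8-IFNγRKO), 17 of 36 members were above 0, with a median of -0.01, and the core sum was at -0.04 (-0.11 to 0.03). *Psmd3* reached 0.25 there, at 0.27, and *Psma3*, *Psmd1*, *Psma4* and *Psme3* -0.25, at -0.39, -0.39, -0.32 and -0.27, all named after their values were seen, where 15.0% of all genes were higher by this limit and 22.1% lower. Between cells of clones of 10 or more, with medians of 6393 and 10556 UMIs, 36 of 36 were above 0, with a median of 0.25 and a core sum of 0.24 (0.23 to 0.25). The median of all genes was -0.05 in the clones of 1 cell. For clones of 10 or more, neither this median nor the share of all genes past the limit was computed. With the largest clone of each library left out, 36 of 36 members were above 0, 10 of them at or above 0.25, where 20.7% of all genes were higher by this limit and 15.7% lower. The ratio in *Tcf7* cells was 0.15 (0.08 to 0.22) for the core and 0.16 (0.06 to 0.27) for the PA28 pair, and in *Havcr2* cells 0.22 (0.21 to 0.24) and 0.11 (0.08 to 0.13).

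Cells with a UMI of *Mki67* or *Top2a*, genes of dividing cells, had a higher core level than the other cells in LN, at 0.32 (0.25 to 0.39) in control and 0.21 (0.13 to 0.29) in CD8-IFNγRKO mice, over 91 and 81 cells. In tumors the core ratio was 0.15 (0.14 to 0.17) in control and 0.01 (0.00 to 0.02) in CD8-IFNγRKO cells, over 1223 and 2614 cells, and the PA28 pair was lower in dividing cells, at -0.08 (-0.10 to -0.05) and -0.13 (-0.15 to -0.12). *Psme1* was the lowest of the members in both tumor libraries, at -0.12 (-0.15 to -0.08) and -0.17 (-0.19 to -0.14). In LN the PA28 pair was at -0.02 (-0.13 to 0.09) and -0.12 (-0.25 to 0.00), with intervals that reach 0. Dividing and other cells were not compared within bands of depth, and the part of depth in these ratios was not tested. In control tumor the core was at 2710 CPM among cells with 2000 to under 4000 UMIs. It was at 3441 CPM among cells with 8000 to under 16000 UMIs.

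**Figure D5:**
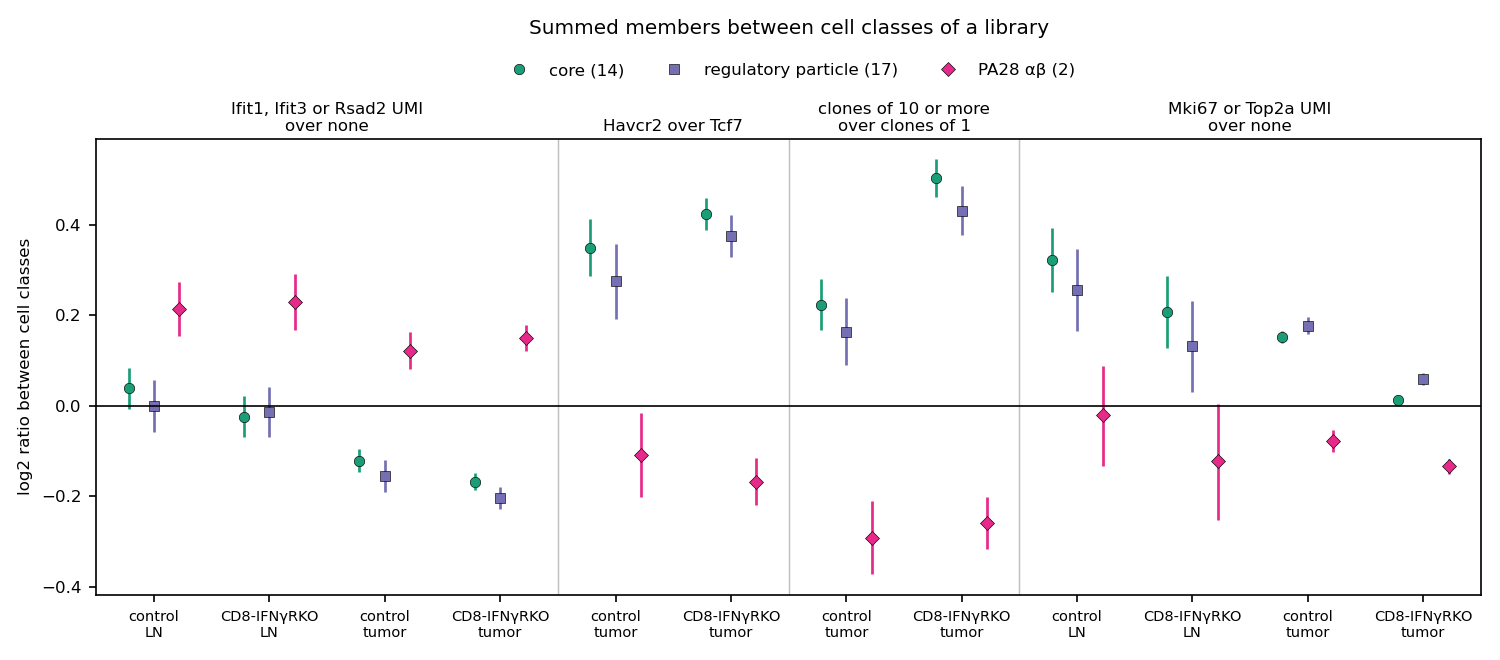
Log2 ratio between cell classes of one library for the summed core (circles), regulatory particle (squares) and PA28 αβ genes (diamonds), with lines for the exact 95% counting intervals. PA28 lies above the other sums in cells with UMIs of interferon-induced genes and below them in the other 3 pairs of classes, which in tumors are *Havcr2* over *Tcf7* cells, large clones over clones of 1 cell, and dividing over other cells.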

How the data were processed

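The authors aligned the reads of 5′ single-cell libraries with Cell Ranger 6.0.0 to the mouse mm10 reference and deposited, without normalization, counts of UMIs per gene and barcode, and for both tumor libraries filtered receptor contigs with counts of UMIs. A barcode was kept if *Cd2*, *Cd8a* and *Cd8b1* had 1 UMI or more each, if it held between 200 and 6000 genes, and if neither mitochondrial genes passed 3% nor any single gene 20% of its UMIs. Doublets were not removed. UMIs were summed over cells of a library and divided by its total. Depth ranged from 28841136 to 93995655 UMIs. Ratios are log2 with 1 CPM added. Exact 95% intervals are Poisson for levels, binomial given the summed count and without the added CPM for ratios, and Clopper-Pearson for the immunoproteasome shares. They were tested on simulated Poisson counts only, the model they assume, without spread between cells, clones or mice. That test therefore cannot show how they hold where such spread is present. With 1 library per group, no p-value was computed. The share of all genes past a ratio covers those that reach 50 CPM in one of the libraries compared, T cell receptor segments left out. Classes of cells used cells thinned to 1600 UMIs, which left out 237 control and 41 CD8-IFNγRKO LN cells and 701 and 278 tumor cells with fewer. Levels of a class used all UMIs of the cells left. Cells of a clone had the same V gene, J gene and CDR3 nucleotides in each of their chains.

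The members and gene lists were chosen with earlier results of these data known. Genes given library by library were the 3 highest and 3 lowest ratios of each comparison, the catalytic subunits and the activators. Some genes of the background lists are not reported here. Other genes are given by range, by the extremes of their list, or because a result turns on them. Alternatives for cells, library size, added CPM and filters are in the closing section, and those by depth and clone size were added after the data had been seen. Computation used scipy 1.17.1 and numpy 2.4.6 in Python 3.11.15, with tables in pandas 2.3.3 and plots in matplotlib 3.10.9.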

Additional observations from a re-analysis of the deposited data

Results flagged for a closer look

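The genotype ratio lay below 0 in LN and above 0 in tumor, with both counting intervals away from 0, for 5 members. The tumor log2 ratio minus that in LN was 0.34 for *Psmb4* (-0.09 in LN and 0.25 in tumor), 0.30 for *Psme2* (-0.18 in LN and 0.12 in tumor), 0.24 for *Psma2* (-0.12 in LN and 0.12 in tumor), 0.24 for *Pomp* (-0.09 in LN and 0.15 in tumor) and 0.21 for *Psme1* (-0.13 in LN and 0.08 in tumor). With 1 library per group the difference between the tissues was not tested. The share of all genes with such opposite signs and both intervals away from 0 was not computed. Whether 5 members is more than that share would give is therefore not known. The intervals cover counting error only. The median of all genes was 0.03 in both tissues. Under other scalings, of the library size, of the median gene, of thinned cells and of the mean over cells, none of these 5 changed sign in either tissue.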

How the results depend on the processing

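The number of members at or above 0.25 between genotypes in tumors was 13. It was 4 (*Psma1*, *Psma4*, *Psma7* and *Psmb4*) with a minimum of 200 CPM, which 16 members reach, 7 in cells with 2000 to under 4000 UMIs, 8 in cells with 8000 to under 16000 UMIs and 5 in clones of 1 cell, of which 4 were lower in CD8-IFNγRKO cells. In these settings, in the same order, the shares of all genes higher were 22.7%, 18.3%, 16.9% and 15.0%, with 22.1% lower in the last. The other 16 alternatives gave a number within 1.5 times of 13. In LN the number was 0 under 17 alternatives and 1 (*Psmc6*, lower) in cells with 8000 to under 16000 UMIs, added later. Between tissues the number of 19 in control mice became 8 with the reduced library size, 11 when centred on the median gene, 10 with 200 CPM and 5 in cells with 2000 to under 4000 UMIs, and the number of 31 in CD8-IFNγRKO mice became 20, 15 and 13 with the reduced library size, 200 CPM and that band. With 200 CPM, which 13 and 16 members reach, 44.4% and 45.9% of all genes were higher, and in that band 30.7% and 29.0%. With the reduced library size the shares were 22.4% and 24.2%, and when centred 27.9% in control mice. The PA28 αβ ratio of 0.10 in tumors was 0.13 without the deepest 8% of cells and in cells not cycling, 0.15 in thinned cells and as a mean of cells, 0.07 when centred, and, added later, 0.18, 0.25 and 0.12 in the bands of depth from low to high and 0.12 without the largest clones. The LN ratio of -0.15 became -0.18 when centred. Neither PA28 ratio changed sign. Signs of single members near 0 in LN changed with the scaling. No paired analysis was possible because the labels carry no replicate numbers and each group is 1 library. Precision is limited by 1 pool of 3 mice per library, which no interval here covers.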

Other observations

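*Psma8*, an α subunit known from testis, had 32 UMIs in 32 cells of control tumor, 1 UMI in CD8-IFNγRKO LN and 0 in control LN, and was chosen after its values were seen. Of these cells, 15 had both receptor chains, and all 15 belonged to one clone of 1104 cells, among 4284 cells with both chains. The CD8-IFNγRKO tumor library had 0 UMIs of it among 93995655. *Psmb11*, the thymus subunit, was at 0.0668 CPM in control LN and at 0 in the other libraries.

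In LN, cells with a UMI of *Ccl5*, a chemokine of memory-like cells, had core levels close to those of other cells, at 0.02 (-0.02 to 0.06) in control and -0.02 (-0.06 to 0.03) in CD8-IFNγRKO mice, over 433 and 382 cells. *Psme1* was at -0.11 (-0.19 to -0.04) and -0.08 (-0.17 to 0.00) there.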
